A study of Rattus norvegicus with 6 samples.

Results

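S100a8, S100a9, Mpo and Lcn2, 4 genes that mark neutrophils and the acute phase of inflammation, were followed in the implanted spinal cord of injured rats. The genes were taken from the deposited expression table by their Ensembl rat identifiers: ENSRNOG00000011557 (S100a8), ENSRNOG00000011483 (S100a9), ENSRNOG00000008310 (Mpo) and ENSRNOG00000013973 (Lcn2). All 4 were present among the 22526 genes of the table and all 4 passed the filter on low values. The table pairs no names with its identifiers, so the 4 symbols rest on the list that defined the set, and other neutrophil or acute phase genes, and the marker genes of spinal cord, could not be looked up.

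The samples were spinal cords of 6 adult female Sprague-Dawley rats, 1 library per rat, taken 2 weeks after spinal cord injury. In 3 rats the lesion held a scaffold of decellularized optic nerve (DON), that is, optic nerve freed of its cells. In the other 3 the scaffold also carried Apt19S, an aptamer, which is a folded single-stranded nucleic acid that binds a target (A-DON). All 6 rats were thus both injured and implanted, and neither uninjured cord nor injured cord without a scaffold was part of the comparison. The sources used here do not say how far the dissected piece reached into scaffold, scar or spared cord. A library stood apart in each group. The chi-square per degree of freedom of the reads over genes was 21.9 between A-DON replicates 1 and 3 but 172 and 148 between them and A-DON replicate 2, which lay between the groups over many genes. The same measure was 271, 158 and 190 between A-DON replicate 2 and DON replicates 1, 2 and 3. It was 53.6 between DON replicates 2 and 3 but 168 and 172 between them and DON replicate 1. The changes of the 4 genes are given with and without these libraries.

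S100a8 and S100a9 encode small calcium-binding proteins that pair as calprotectin, a main protein of the neutrophil cytosol that binds zinc and manganese and, once released, acts as a danger signal. Mpo encodes myeloperoxidase, an enzyme of the azurophil granules that makes hypochlorous acid, and its transcript belongs mainly to immature myeloid cells of the bone marrow. Lcn2 encodes lipocalin 2, which captures bacterial iron carriers. It is stored in the specific granules of neutrophils and is also induced in reactive astrocytes, endothelium and epithelium during inflammation. In injured cord, neutrophils enter within the first days and are followed by monocytes and macrophages. Monocytes can carry S100a8 and S100a9 as well, so S100a8, S100a9 and Lcn2 are not limited to neutrophils.

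Promoters of 3 of the genes are shown as a description of sequence, and whether they bear on the levels of the transcripts was not tested. The sequences are those of RefSeq, rat build GRCr8, and run from 250 bases before to 50 bases after the annotated transcript start, 5′ to 3′ on the strand of the gene. The S100a9 window is chr2:178490573-178490872 on the minus strand, the Mpo window is chr10:73092152-73092451 on the plus strand and the Lcn2 window is chr3:36081731-36082030 on the minus strand. Capitals mark matches, on either strand, to a TATA box (TATAAA) and to short forms of the sites bound by C/EBP factors (TTNNGNAAN), NF-kB (GGGNNNTTC), STAT factors (TTCNNNGAA) and ETS factors (GAGGAA).
S100a9: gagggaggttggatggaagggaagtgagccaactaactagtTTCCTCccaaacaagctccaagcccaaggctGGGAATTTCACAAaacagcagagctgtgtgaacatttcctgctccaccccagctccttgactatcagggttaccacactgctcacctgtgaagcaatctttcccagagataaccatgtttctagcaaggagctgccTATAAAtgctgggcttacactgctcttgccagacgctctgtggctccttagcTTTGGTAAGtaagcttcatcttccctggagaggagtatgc
Mpo: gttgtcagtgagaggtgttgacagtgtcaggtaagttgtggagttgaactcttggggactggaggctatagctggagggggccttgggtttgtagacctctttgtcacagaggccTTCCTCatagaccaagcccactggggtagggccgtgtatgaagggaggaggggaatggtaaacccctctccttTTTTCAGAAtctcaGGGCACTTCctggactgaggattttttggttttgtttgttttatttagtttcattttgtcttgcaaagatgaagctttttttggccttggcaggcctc
Lcn2: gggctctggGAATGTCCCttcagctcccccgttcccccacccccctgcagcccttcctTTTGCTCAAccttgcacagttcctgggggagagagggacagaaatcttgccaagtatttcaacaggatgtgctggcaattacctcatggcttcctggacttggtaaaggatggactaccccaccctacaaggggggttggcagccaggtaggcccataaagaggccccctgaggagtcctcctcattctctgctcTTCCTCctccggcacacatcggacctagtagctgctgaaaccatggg

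The C/EBP, NF-kB and ETS forms were found in all 3 windows, and they occur in 41.2%, 14.2% and 27.6% of all 33469 RefSeq promoter windows of this length. In S100a9 the NF-kB match overlaps a C/EBP match. The NF-kB result depends on the spelling: a looser form, GGG and CC with any 5 bases between, was found 3 times in Mpo and 3 times in Lcn2, was not found in S100a9, and occurs in 47.3% of all windows. TATAAA was found only in S100a9 among the 3, starting 42 bases before the transcript start, and occurs in 14.2% of all windows. The STAT form, found in 8.87% of all windows, was in none of the 3. The forms were chosen with the windows in view, and the matches describe the letters and do not show that a factor binds. In the same annotation S100a8 and S100a9 are neighbours on chromosome 2 with no gene between them, beside S100a7a on one side and Pglyrp4 on the other, whereas Mpo lies on chromosome 10 and Lcn2 on chromosome 3.

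All 4 transcripts were lower in A-DON than in DON cord. Values are normalized counts, that is, reads divided by a size factor of the library, and the change is given as a log2 fold change of A-DON over DON from limma, fitted across 19515 genes with Benjamini-Hochberg adjustment. Log2 fold changes are on the log2(normalized count + 1) scale, which understates changes of low counts. With all 6 rats the 4 genes passed the adjusted threshold of 0.05 and all 4 fell. These calls rest on the full set of rats: of the 6 fits that leave out 1 rat, 5 lost the call of S100a8, S100a9 and Lcn2 and 2 that of Mpo, while the direction stayed. In the same test 35.5% of all tested genes passed, and genes that passed with lower values in A-DON made up 16.6% of all tested genes. The latter share also depends on single rats, from 0% without A-DON replicate 3 and 0.0157% without A-DON replicate 1 to 25.6% without A-DON replicate 2, with 6.60%, 5.51% and 1.24% without DON replicates 1, 2 and 3. The A-DON libraries lay below the DON libraries without overlap in all 4 genes, as in 27.9% of all tested genes. A lower value in bulk tissue can mean fewer cells of a type or less RNA per cell, and these cannot be told apart.

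Both subunits of calprotectin fell. S100a8 stood at 417, 580 and 563 normalized counts in DON replicates 1, 2 and 3 and at 9.63, 142 and 14.8 in A-DON replicates 1, 2 and 3. The means were 520 ± 89.2 in DON and 55.6 ± 75.2 in A-DON (SD, n = 3 each). A-DON replicates 1 and 3 were nearly empty of the transcript, with 10 and 15 reads, while A-DON replicate 2 kept an intermediate level that was still 2.93 times below the lowest DON library. S100a8 fell by 4.16 on the log2 scale, with a standard error of 0.97, a 95% interval from -6.53 to -1.78 and a limma adjusted p of 0.0256. S100a9 stood at 766, 847 and 983 normalized counts in DON replicates 1, 2 and 3 and at 15.4, 288 and 23.7 in A-DON replicates 1, 2 and 3. The means were 865 ± 110 in DON and 109 ± 155 in A-DON (SD, n = 3 each), and the order of the A-DON libraries was that of S100a8. S100a9 fell by 4.14 on the log2 scale, with a standard error of 1.06, a 95% interval from -6.74 to -1.54 and a limma adjusted p of 0.0316.

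Mpo, the granule enzyme, had the fewest reads of the 4 and the narrowest interval. It stood at 127, 181 and 184 normalized counts in DON replicates 1, 2 and 3 and at 3.85, 20.5 and 10.9 in A-DON replicates 1, 2 and 3. The A-DON values rest on 4, 19 and 11 reads. The exact 95% Poisson intervals of the 3 A-DON libraries, from 1.05 to 9.86, from 12.3 to 32.0 and from 5.43 to 19.5 normalized counts, overlap in part, and all end far below the lower bound of 106 in the lowest DON library. These intervals cover counting error only. The means were 164 ± 32.2 in DON and 11.7 ± 8.36 in A-DON (SD, n = 3 each). Mpo fell by 3.92 on the log2 scale, with a standard error of 0.58, a 95% interval from -5.33 to -2.51 and a limma adjusted p of 0.0115. The lowest DON library was 6.19 times above the highest A-DON library, the widest gap of the 4 genes.

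Lcn2 had the smallest change and the widest spread among DON rats. It stood at 1366, 1713 and 3767 normalized counts in DON replicates 1, 2 and 3 and at 129, 889 and 90.0 in A-DON replicates 1, 2 and 3. DON replicate 3 was 2.76 times above DON replicate 1, against ratios of highest to lowest DON library of 1.28 to 1.45 for the other 3 genes. DON replicate 1 and A-DON replicate 2 were close, at a ratio of 1.54. The means were 2282 ± 1297 in DON and 369 ± 451 in A-DON (SD, n = 3 each). Lcn2 fell by 3.24 on the log2 scale, with a standard error of 0.91, a 95% interval from -5.46 to -1.01 and a limma adjusted p of 0.0393.

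**Figure D1:**
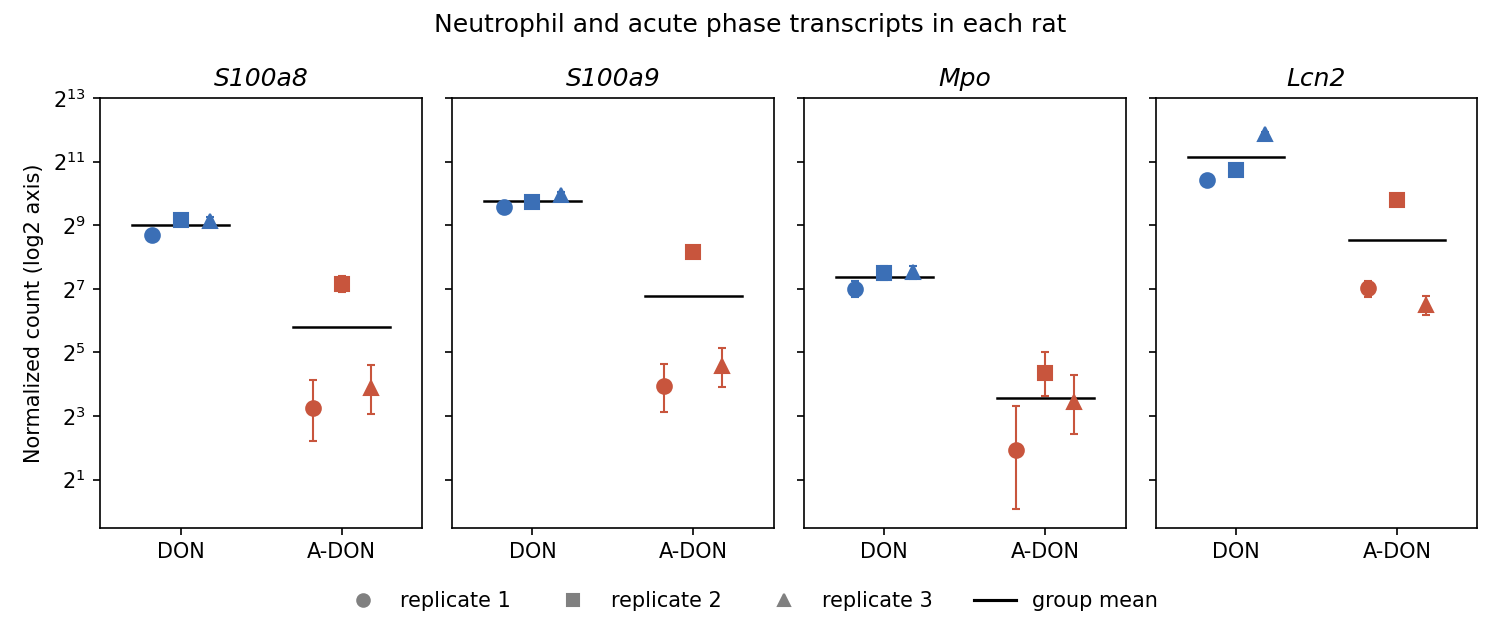
Normalized counts of S100a8, S100a9, Mpo and Lcn2 (log2 axis) in the 3 DON (blue) and 3 A-DON (red) libraries; symbols give the replicate number, bars the exact 95% Poisson interval of the reads and lines the linear group mean. A-DON replicate 2 (square) is the highest A-DON library in all 4 genes and lies below every DON library.

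Set among all tested genes, the 4 transcripts were in the far lower range of the fold changes. Their median log2 fold change was -4.03, against -0.02 over all tested genes. A fold change as low or lower than that of S100a8 was found in 60 genes, or 0.307% of those tested. The corresponding shares were 0.318% for S100a9, 0.405% for Mpo and 1.40% for Lcn2. Since the genes were chosen with earlier results of these data known, these ranks describe them and are no independent support for the fall.

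**Figure D2:**
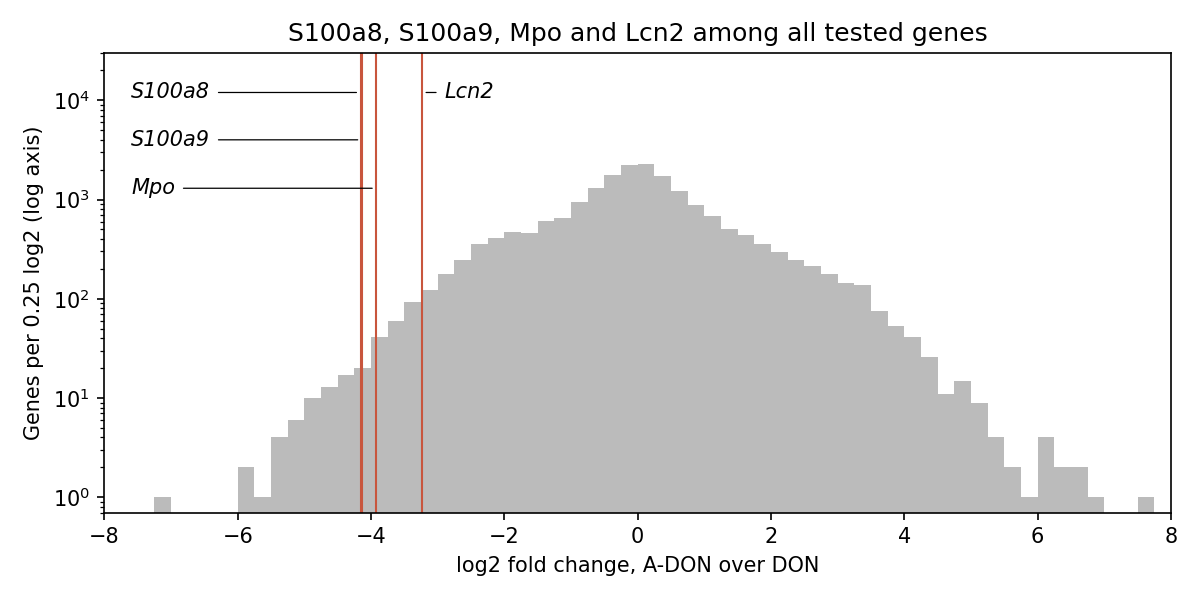
Histogram of the log2 fold changes, A-DON over DON, of all 19515 tested genes (log axis of gene counts), with red lines at S100a8, S100a9, Mpo and Lcn2. The lines stand between -4.16 and -3.24, on the lower flank of the distribution.

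The rats of the A-DON group did not share one level. The SD of the log2 values within A-DON was 2.02 for S100a8, 2.24 for S100a9, 1.08 for Mpo and 1.77 for Lcn2, with a median over all tested genes of 0.29. Within DON the SDs were 0.26, 0.18, 0.30 and 0.77, with a median over all tested genes of 0.28. DON replicate 1 was the lowest DON library in each gene, and A-DON replicate 2 was the highest A-DON library. It was 11.7 times above the mean of replicates 1 and 3 for S100a8, 14.7 times for S100a9, 8.12 times for Lcn2 and 2.78 times for Mpo. The DON mean exceeded the mean of A-DON replicates 1 and 3 by 42.5 times for S100a8, 44.2 times for S100a9, 22.3 times for Mpo and 20.8 times for Lcn2. It exceeded A-DON replicate 2 by 3.65 times for S100a8, 3.00 times for S100a9, 7.998 times for Mpo and 2.57 times for Lcn2.

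A-DON replicate 2 lay between the groups in many genes, not in these 4 alone. On the linear scale, with 0 at the DON mean and 1 at the mean of A-DON replicates 1 and 3, it was placed at 0.74 for S100a8, 0.68 for S100a9, 0.92 for Mpo and 0.64 for Lcn2. Over the 1650 genes averaging 50 or more normalized counts that were at least 4-fold lower in A-DON replicates 1 and 3 than in DON, without overlap, the median place was 0.52, with quartiles of 0.39 and 0.64. The 4 genes are among these 1650, and 2.30% of the set was placed at or beyond Mpo, 9.88% at or beyond S100a8, 17.5% at or beyond S100a9 and 24.6% at or beyond Lcn2. The difference in place between the 4 genes and the rest of the set was not tested. Because the set was chosen by low values in A-DON replicates 1 and 3, replicate 2 can fall nearer to DON through that choice. How much of its place stems from the choice was not tested. Taken from means of log2 values, the places were 0.347 for S100a8, 0.291 for S100a9, 0.66 for Mpo and 0.286 for Lcn2. On that scale A-DON replicate 2 lay nearer to DON for S100a8, S100a9 and Lcn2 and nearer to the other A-DON replicates for Mpo. The median, quartiles and shares of the set are for the linear scale only, where the place can depend on the size of the fall.

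Leaving out single rats kept the direction of all 4 genes but not every call. With A-DON replicate 2 left out, log2 fold changes were -5.31 (S100a8), -5.42 (S100a9), -4.42 (Mpo) and -4.25 (Lcn2), with limma adjusted p from 0.000533 to 0.00222. With DON replicate 1 left out, they were -4.31 (S100a8), -4.22 (S100a9), -4.09 (Mpo) and -3.54 (Lcn2). Without any single rat other than A-DON replicate 2, S100a8, S100a9 and Lcn2 no longer passed, with limma adjusted p from 0.0598 to 0.131. Mpo still passed without each DON rat and missed the threshold without A-DON replicate 1 (log2 fold change -3.35, limma adjusted p = 0.0534) or A-DON replicate 3 (-3.99, limma adjusted p = 0.0659). These fits have fewer residual degrees of freedom than that with all 6 rats.

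**Figure D3:**
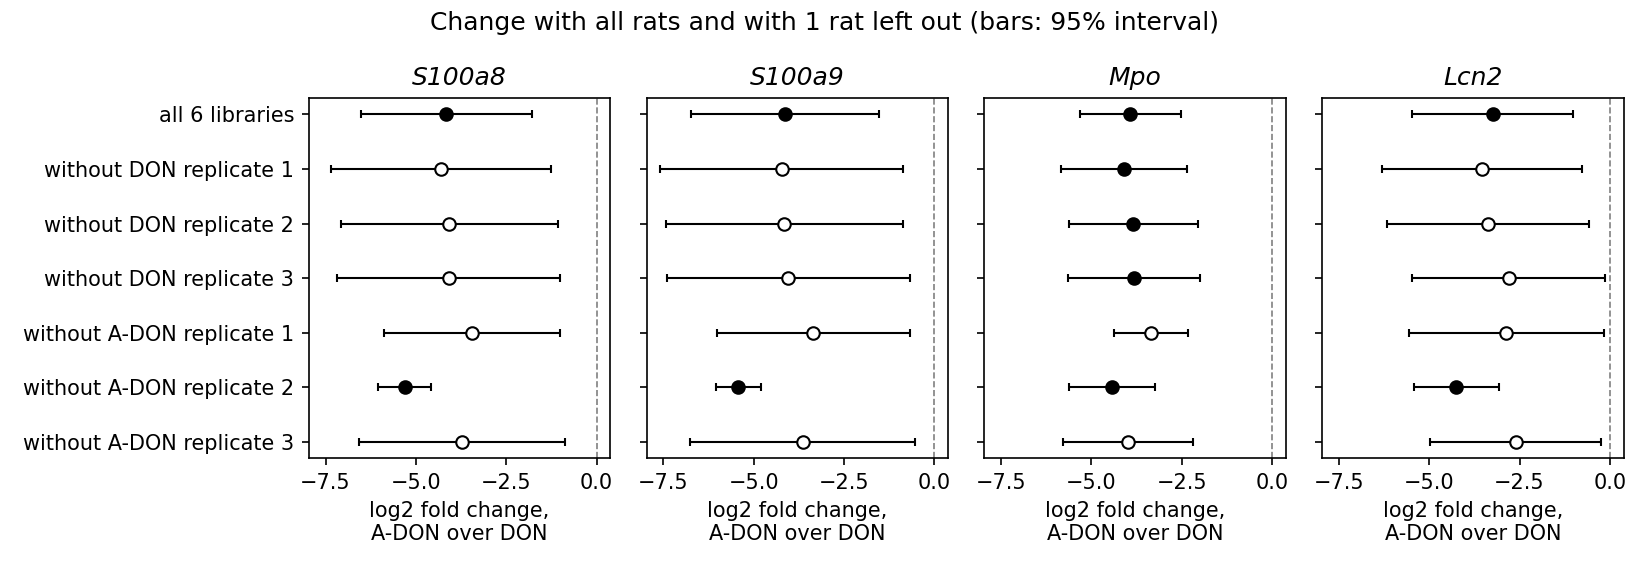
Log2 fold change of A-DON over DON with its 95% interval from limma, with all 6 libraries and with each library left out; filled points have an adjusted p under 0.05. Estimates run from -5.42 to -2.60, and the intervals of all 4 genes narrow without A-DON replicate 2, least for Mpo.

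Whether the 4 transcripts fell by unequal amounts was examined from differences of their log2 values within each library. Counts are not per length, so only the change of a ratio between libraries is read, not its size. S100a9 was 1.84, 1.46 and 1.75 times S100a8 in DON replicates 1, 2 and 3, and 1.60, 2.02 and 1.60 times in A-DON replicates 1, 2 and 3. The 2 groups overlapped, although the S100a8 level itself ran from 9.63 to 580 normalized counts. The log2 difference of S100a8 minus S100a9 averaged -0.74 ± 0.17 in DON and -0.76 ± 0.22 in A-DON (SD, n = 3 each; exact two-sided permutation p = 1.00). The ratio of Lcn2 to S100a9 was 1.78, 2.02 and 3.83 in DON replicates 1, 2 and 3 and 8.37, 3.09 and 3.79 in A-DON replicates 1, 2 and 3, so that here too the groups overlapped. The log2 difference of S100a9 minus Lcn2 averaged -1.26 ± 0.59 in DON and -2.16 ± 0.73 in A-DON (SD, n = 3 each; exact two-sided permutation p = 0.3). Against Mpo the A-DON rats diverged: S100a9 minus Mpo was 2.59, 2.22 and 2.41 in DON replicates 1, 2 and 3 and 1.76, 3.75 and 1.06 in A-DON replicates 1, 2 and 3 (exact two-sided permutation p = 0.9). The A-DON values thus lay on both sides of the DON values, with replicate 2 above and replicates 1 and 3 below. In A-DON replicates 1 and 3 they rest on 4 and 11 reads of Mpo and on 16 and 24 reads of S100a9. At such counts the 1 added before the log2 also shifts the difference. Counting error was not carried into these differences, so whether it covers the divergence was not tested. Without A-DON replicate 2, the A-DON minus DON differences were 0.107 for S100a8 minus S100a9, -0.998 for S100a9 minus Mpo and -1.17 for S100a9 minus Lcn2. Over all 6 pairs of genes the exact p ran from 0.3 to 1.00 and the Benjamini-Hochberg adjusted p from 0.9 to 1.00. The smallest p that 3 rats against 3 allow is 0.1, so unequal falls were not detectable by this test, and equal falls are not shown either.

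**Figure D4:**
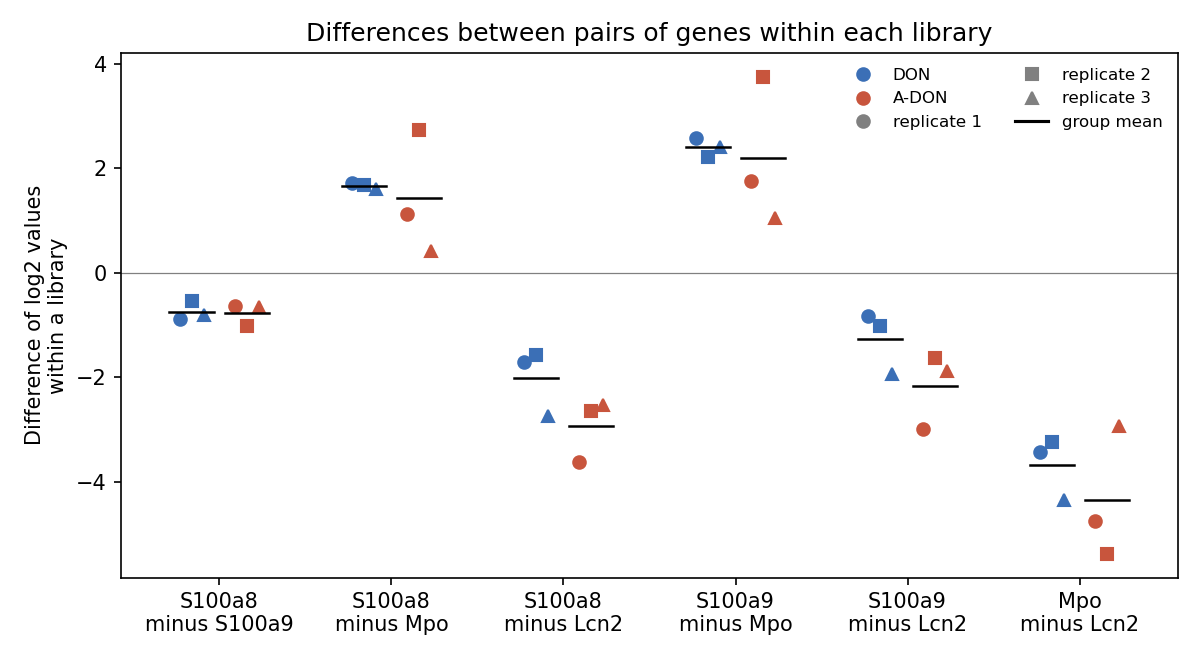
Differences of the log2 values of pairs of genes within each library for DON (blue) and A-DON (red); symbols give the replicate number and lines the group means. S100a8 minus S100a9 lies between -1.01 and -0.55 in all 6 libraries, and the differences that involve Mpo are wider apart in A-DON than in DON.

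Many other genes followed the same pattern over the rats. Among 14702 genes averaging 50 or more normalized counts, 22.1% had a Pearson r over 0.9 with the log2 values of S100a8 over the 6 libraries, 22.0% with those of S100a9, 18.8% with Mpo and 17.1% with Lcn2. The closest to S100a8 was ENSRNOG00000018659 (r = 0.9991), which averaged 4181 normalized counts in DON and 1306 in A-DON and fell by 1.85 on the log2 scale (limma adjusted p = 0.0232). The closest to S100a9 was ENSRNOG00000011683 (r = 0.9995), which averaged 1343 and 341.8 normalized counts and fell by 2.41 (limma adjusted p = 0.034; log2 fold change -3.18 without A-DON replicate 2). Both moved by less than the calprotectin genes, and both calls held without A-DON replicate 2 and were lost without any other single library (limma adjusted p from 0.0529 to 0.118). The r values describe likeness over 6 libraries in 2 groups that stand apart, and each gene was the highest of 14702.

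Depth was 29143139 to 31189687 reads in the DON libraries and 24961512 to 28911941 in the A-DON libraries. S100a9 had 804 to 973 reads per library in DON and 16 to 267 in A-DON. Across all genes 3698 were higher and 3232 lower in A-DON, that is, 53.4% of the calls were higher. The split was 2616 higher and 1266 lower without DON replicate 1, 2829 and 1057 without DON replicate 2, and 1410 and 236 without DON replicate 3. It was 15 and 3 without A-DON replicate 1 and 4314 and 4862 without A-DON replicate 2, and no gene passed in either direction without A-DON replicate 3 (limma; 6704 at an unadjusted p under 0.05). With libraries rescaled to equal totals 4360 were higher and 2422 lower (64.3% higher), and the 4 genes still fell, with log2 fold changes from -4.07 to -3.15. The rats are separate animals, so the limma p-values set the group difference against the spread between rats. In that test the variance of each gene was partly drawn from a trend over all genes. The tissue piece of each rat cannot be told apart from the rat.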

How the data were processed

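Stranded mRNA-seq libraries of rat spinal cord were sequenced on an Illumina instrument, per the labels' protocols. FastQC 0.11.2, STAR 2.5.3a, StringTie 1.3.1c and build rn6 are listed in the submitters' processing notes without a role; the sources used here do not give the counting program, strand setting or annotation, so reads of overlapping or antisense genes may be included.

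The authors deposited log2 values for 22526 genes in 6 libraries. After undoing the log2 and subtracting 1, 100% of the values were whole multiples of a step per library within 0.05 reads, and the inverse steps (0.927 to 1.05) equal median-of-ratios size factors. The deposited values are thus log2(reads / size factor + 1).

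Libraries were grouped by their titles. The groups were compared with limma 3.58.1 (R 4.3.3; a linear model on group with an intensity trend and robust moderation), using the deposited log2 values as they stand. Of the genes, 19515 reached a normalized count of 1 in 3 or more libraries and were tested, with Benjamini-Hochberg adjustment and a threshold of 0.05. Differences between genes used exact permutation tests (scipy 1.17.1). The titles number the rats but do not say that equal numbers pair them, so the numbers were not used as pairs. Deviations from the group means were not alike in same-numbered rats (r = -0.32, -0.37 and -0.16 over 14313 genes). With 3 rats per group, whose deviations sum to 0, these r values cannot exclude pairing. Besides the 4 genes, the genes named were the most alike by Pearson's r, limited to 2 identifiers for want of symbols; the lists of other neutrophil, acute phase and cell type genes could not be applied, as 0 identifiers matched the reference gene table. Of the 4 genes, 3 matched the promoter table by symbol. The genes and lists were chosen with earlier results of these data known.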

Additional observations from a re-analysis of the deposited data

How the results depend on the processing

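The 4 genes kept their direction under all 14 alternatives run for each. Under the 8 that keep all 6 rats, log2 fold changes ran from -4.26 to -4.07 (S100a8), from -4.23 to -4.04 (S100a9), from -4.07 to -3.83 (Mpo) and from -3.30 to -3.13 (Lcn2). Lcn2 lost its call in limma without trend and robust moderation (log2 fold change -3.24, adjusted p = 0.0526). With the replicate number as a block, which leaves fewer residual degrees of freedom, all 4 genes lost their call at unchanged log2 fold changes of -4.16 (S100a8, limma adjusted p = 0.0681), -4.14 (S100a9, 0.072), -3.92 (Mpo, 0.0658) and -3.24 (Lcn2, 0.0886). That fit called 0 of 19515 genes, while 7601 had an unadjusted p under 0.05. No A-DON rat correlated best with the DON rat of its own number, which cannot exclude pairing. Leaving out each replicate gave log2 fold changes from -5.31 to -3.44 (S100a8), from -5.42 to -3.35 (S100a9), from -4.42 to -3.35 (Mpo) and from -4.25 to -2.60 (Lcn2), and 0 to 9176 genes past the threshold in all, fewest without A-DON replicate 3 (limma; 6704 at an unadjusted p under 0.05) and most without A-DON replicate 2. Of the differences between genes, A-DON minus DON, S100a8 minus S100a9 (-0.02) ran from -0.086 to 0.107 when each replicate was left out and turned without DON replicate 2 (0.079) or A-DON replicate 2 (0.107). S100a8 minus Mpo (-0.24) ran from -0.891 to 0.27 and S100a9 minus Mpo (-0.22) from -0.998 to 0.348, and both turned without A-DON replicate 3. The cause of these changes was not tested. The 2 planned count models (edgeR and DESeq2) were not run. Limma voom on the recovered reads called 7557 genes, the 4 among them. Depth limits Mpo most, with 4 to 19 reads per A-DON library.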
